A study of Mus musculus with 2 samples.

Results

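The 9 genes described here encode the proteins through which a cell receives a Hedgehog signal. They are the co-receptor genes Gas1, Cdon and Boc, the receptor gene Ptch1, the antagonist gene Hhip, the signal transducer gene Smo and the transcription factor genes Gli1, Gli2 and Gli3. The members were fixed by name, with earlier results of these data known. Every probe set whose platform annotation gave exactly 1 of these genes was taken. This gave 24 of the 45037 probe sets on the array and all 9 of the 9 genes, out of 18193 named genes. RNA came from primary mouse embryonic fibroblasts (MEFs) made from C57BL/6 embryos at embryonic day 13.5, cultured in 10% serum and used at passage 2. One culture was transfected with GapmeR Control, a non-targeting locked nucleic acid oligonucleotide, and the other with GapmeR AK156230, an oligonucleotide of the same kind that directs RNase H to the long noncoding RNA AK156230. MEF cultures can hold cells of several origins, and 1 oligonucleotide against AK156230 was used. The annotation gave no probe set for AK156230, and its level was not analysed here. No Hedgehog ligand or agonist is named in the labels for either culture, and the time from transfection to RNA is not given for the arrays. The comparison asks which mRNAs differed once this lncRNA had been targeted. Each condition had 1 array, so no difference below has a replicate check, no test was run, and "higher" and "lower" describe these arrays only.

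Hedgehog proteins are secreted signals that pattern the limbs, the neural tube and the skeleton. GAS1, CDON and BOC hold the ligand at the cell surface and help it to reach Patched1 (PTCH1), which otherwise keeps Smoothened (SMO) inactive. Once released, SMO moves into the primary cilium and acts on the GLI proteins, of which GLI3 serves mainly as a repressor when no ligand is present, GLI2 is the main activator, and GLI1 is an activator whose gene is itself a target. Ptch1 and Hhip are targets too and lower the response, PTCH1 by inhibiting SMO and HHIP by binding the ligand. Fibroblasts are a cell type in which this pathway is often studied because they carry cilia and respond to added ligand.

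The starts of the genes that differ most on the arrays are shown first, with 2 relatives for contrast. The sequences are the 250 bases before the RefSeq start of Gas1 (chr13:60177536-60177785, minus strand), Gli3 (chr13:15463473-15463722, plus strand), Gli2 (chr1:119053620-119053869, minus strand) and Ptch1 (chr13:63565736-63565985, minus strand) in GRCm38.p6, written 5′ to 3′ on the strand of the gene. The RefSeq starts used for Gli2 and Ptch1 lie inside the span of the gene. Capitals mark CG dinucleotides.
Gas1: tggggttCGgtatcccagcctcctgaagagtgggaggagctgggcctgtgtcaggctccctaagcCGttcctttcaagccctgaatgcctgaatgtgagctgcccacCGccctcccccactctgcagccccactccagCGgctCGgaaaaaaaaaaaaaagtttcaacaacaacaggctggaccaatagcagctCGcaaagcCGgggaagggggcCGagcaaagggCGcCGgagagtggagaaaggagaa
Gli3: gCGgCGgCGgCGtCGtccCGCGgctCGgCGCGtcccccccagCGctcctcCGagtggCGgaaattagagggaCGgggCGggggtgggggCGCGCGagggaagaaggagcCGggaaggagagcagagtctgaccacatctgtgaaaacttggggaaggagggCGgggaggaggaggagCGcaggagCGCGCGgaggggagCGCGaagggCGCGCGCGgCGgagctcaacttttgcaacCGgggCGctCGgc
Gli2: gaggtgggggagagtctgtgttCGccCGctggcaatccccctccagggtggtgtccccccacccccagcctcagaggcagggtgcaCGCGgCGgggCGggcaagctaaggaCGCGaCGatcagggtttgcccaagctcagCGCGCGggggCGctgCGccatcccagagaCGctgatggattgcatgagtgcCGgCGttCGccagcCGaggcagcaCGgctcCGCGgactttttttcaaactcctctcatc
Ptch1: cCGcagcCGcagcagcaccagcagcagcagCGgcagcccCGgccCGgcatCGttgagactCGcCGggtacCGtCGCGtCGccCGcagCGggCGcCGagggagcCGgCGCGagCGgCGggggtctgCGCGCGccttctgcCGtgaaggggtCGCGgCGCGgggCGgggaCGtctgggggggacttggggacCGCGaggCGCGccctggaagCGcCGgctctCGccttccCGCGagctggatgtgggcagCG
Gas1 had 10 CG dinucleotides in this stretch, Gli3 had 34, Gli2 had 22 and Ptch1 had 41, against a median of 6 over all 32851 RefSeq promoter windows. Windows of the same kind were held for Smo, Hhip and Cdon, and none was used for Boc and Gli1. The starts used for Hhip and Cdon also lie inside the span of the gene. That of Cdon is far inside (window chr9:35451826-35452075), and its window had 1 CG dinucleotide. The GLI binding consensus TGGGTGGTC, searched on both strands over 250 bases before and 50 after the start, was in 0.253% of all windows and in 0 of the 7 members' windows. Its shorter form GGGTGGTC, which lies within the consensus, was in 0.807% of all windows and again in 0 of the 7. The GC box GGGCGG was in 35.7% of all windows and in those of Gli2, Hhip, Gli3, Gas1 and Ptch1. The CCAAT box was in 37.4% of all windows and in those of Cdon and Gas1. These counts describe the letters of short windows only.

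Among the 9 genes, Gas1 and Gli3 were much lower with GapmeR AK156230, 5 genes were lower by less than 2-fold, and Gli1 and Hhip had log2 ratios above 0. Taking the brightest probe set of each gene, 2 of 9 genes were past 2-fold, both of them lower. Over all 18193 genes 3.85% were lower and 1.59% were higher by 2-fold or more. Of the 24 probe sets 5 were lower and 2 were higher by 2-fold or more, beside 3.28% and 1.45% of all probe sets. The 5 lower probe sets belong to 2 genes and the 2 higher ones to Hhip, so these are not independent counts. Because the members were chosen with earlier results known, the shares over all genes are given for description only. Fewer cells of a type and less RNA per cell cannot be told apart in bulk RNA. The median log2 ratio was -0.64 over the 9 genes and -0.07 over all genes. Probe sets are called bright here when the signal on the brighter array reached the median of that array, which was 54.8 under GapmeR Control and 50.95 under GapmeR AK156230 in arbitrary MAS5 units. This held for 17 of the 24 probe sets, and the others are called dim. Of the 17, 3 of Hhip passed only through the array of GapmeR AK156230, and 1 of Gas1 only through that of GapmeR Control. The table held no detection calls, so a signal under the median may be background.

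**Figure D1:**
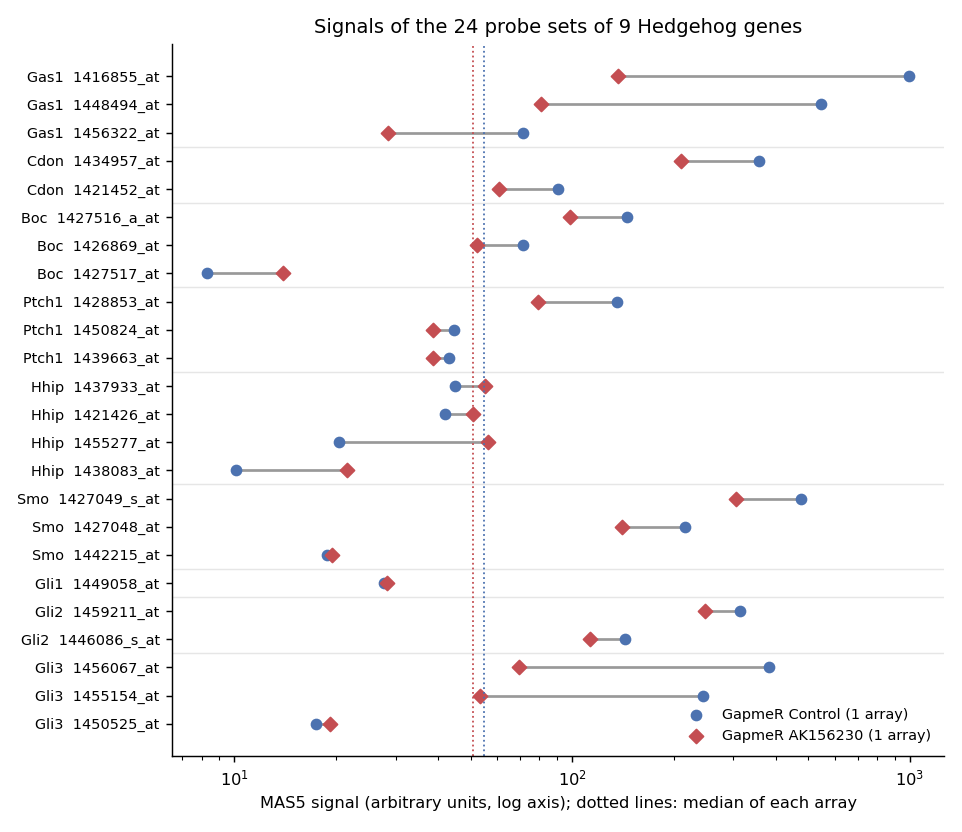
MAS5 signal on a log axis of each of the 24 probe sets, with a circle for GapmeR Control and a diamond for GapmeR AK156230 (1 array each) joined by a line, and the probe sets of a gene ordered from bright to dim. The 3 Gas1 lines and the upper 2 Gli3 lines are the longest that run to lower signals, with Gas1 from 995.8 to 137.07, while the Hhip lines run to higher signals.

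Gas1 encodes a membrane protein with a lipid anchor that was first found in growth-arrested fibroblasts and binds Hedgehog ligands. It lies on chromosome 13 from 60174405 to 60177535 in GRCm38.p6. The brightest probe set gave 995.8 under GapmeR Control and 137.07 under GapmeR AK156230, 7.26-fold lower, and the second gave 544.01 and 80.8, 6.73-fold lower. The third was much dimmer, at 71.6 and 28.56, 2.51-fold lower, and was above the array median only with GapmeR Control. All 3 probe sets were thus past 2-fold in the same direction. Of all 45037 probe sets on the array only 76 had a lower log2 ratio than the brightest one of Gas1. Adding the 25th percentile of all signals, 24.3, to every signal left the first 2 at log2 ratios of -2.66 and -2.43 and brought the dimmest to -0.86.

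The other co-receptor genes were lower by smaller amounts. Cdon and Boc encode related transmembrane proteins of the immunoglobulin superfamily that bind Hedgehog ligands with their fibronectin repeats. Cdon, on chromosome 9 from 35421528 to 35507652, gave 357.07 under GapmeR Control and 209.46 under GapmeR AK156230 at its brightest probe set, 1.70-fold lower, and 90.97 and 60.68 at the other, a log2 ratio of -0.58. Boc, on chromosome 16 from 44485045 to 44558870, gave 145.35 and 98.24, 1.48-fold lower, and 71.66 and 52.15 at a second probe set, 1.37-fold lower. The last of its probe sets went the other way but was near the bottom of the range on both arrays, at 8.32 and 13.9. All bright probe sets of the 3 co-receptor genes were therefore lower with GapmeR AK156230, but those of Gas1 alone by 2-fold or more. The dimmest of Gas1 counts as bright only through the array of GapmeR Control.

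Ptch1 encodes the receptor and is at the same time a target of the pathway. It lies on chromosome 13 from 63508328 to 63573460. One probe set was bright, with 135.67 under GapmeR Control and 79.27 under GapmeR AK156230, 1.71-fold lower. The others were dim on both arrays, at 44.65 and 38.84 and at 43.16 and 38.77, and differed by 1.15-fold and 1.11-fold. Smo, on chromosome 6 from 29735497 to 29761366, encodes the seven-pass membrane protein that PTCH1 restrains. It was lower by 1.56-fold (476.67 and 305.94) and 1.54-fold (216.36 and 140.28) at its bright probe sets, and its dim one gave 18.76 and 19.4. The differences of Cdon, Boc, Ptch1 and Smo lay between log2 ratios of -0.78 and -0.46 at the bright probe sets. As a yardstick, the 2 brightest probe sets of a gene, over 5112 genes where both were bright, had log2 ratios that varied with an SD of 0.276 per probe set, a spread within these arrays that says nothing about another pair of cultures.

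Hhip encodes a membrane protein that binds Hedgehog ligands and keeps them from PTCH1. It lies on chromosome 8 from 79965850 to 80058060. All 4 of its probe sets had higher signals with GapmeR AK156230, and all 4 were under the array median with GapmeR Control. The largest difference was from 20.38 with GapmeR Control to 56.24 with GapmeR AK156230, 2.76-fold higher, and the next was from 10.13 to 21.49, 2.12-fold higher. The brightest of the 4 gave 45.11 and 55.2 and another 41.93 and 50.97, both 1.22-fold higher. With 24.3 added to every signal the first 2 had log2 ratios of 0.85 and 0.41, which are within 2-fold. Hhip was thus the only member with all of several probe sets higher, but at signals no more than slightly above the median of the GapmeR AK156230 array.

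**Figure D2:**
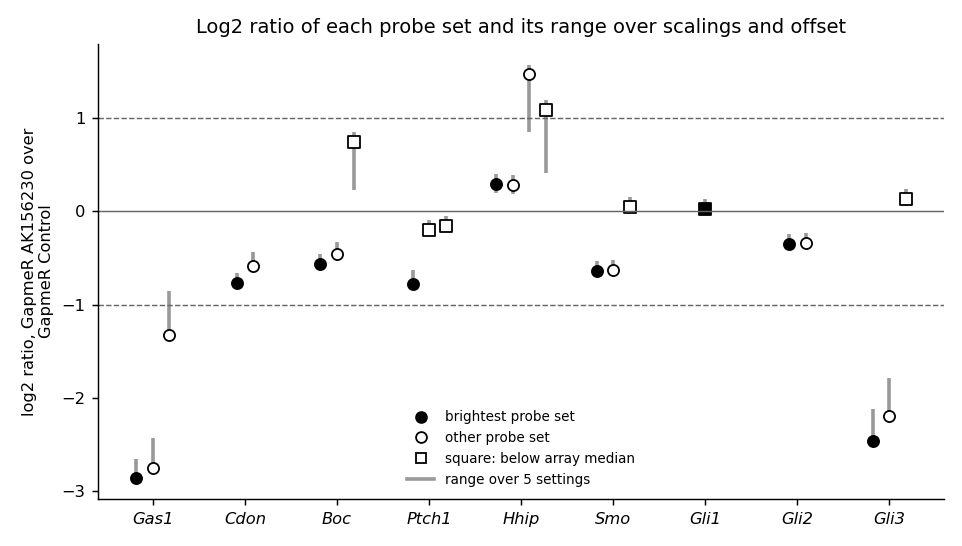
log2 ratio (GapmeR AK156230 over GapmeR Control) of every Hedgehog probe set on signals as deposited (filled, brightest of its gene; square, below the array median), with a grey line over its values under the deposited scale, 3 other scalings and the added offset, and dashed lines at 2-fold. Gas1 and Gli3 reach -2.86 and -2.47, the bright probe sets of Cdon, Boc, Ptch1, Smo and Gli2 lie between -0.78 and -0.34, and Hhip lies above 0 at every probe set.

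The 3 GLI genes differed in what the arrays showed. Gli3, on chromosome 13 from 15463723 to 15730026, gave 383.64 under GapmeR Control and 69.47 under GapmeR AK156230 at its brightest probe set, 5.52-fold lower. A second probe set gave 243.9 and 53.39, 4.57-fold lower. The third was dim on both arrays, at 17.47 and 19.15. On the array of GapmeR AK156230 both bright probe sets were thus close to the array median, at the 58.2nd and 51.3rd percentiles of all signals, after the 86.9th and 81.0th with GapmeR Control. Gli2, on chromosome 1 from 118834061 to 119054405, was 1.27-fold lower at both of its probe sets, from 314.41 to 247.31 and from 143.06 to 113.02. Gli1, on chromosome 10 from 127329882 to 127341579, had 1 probe set, which was dim on both arrays at 27.74 and 28.22. The gene most often read as a measure of pathway activity was thus under the array median in both cultures. A fall in it could not be read at this signal, and its 1 probe set gave nearly the same value on both arrays. The log2 ratios at the brightest probe sets were -2.47 for Gli3, -0.35 for Gli2 and 0.02 for Gli1. No test of the difference between them could be run.

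**Figure D3:**
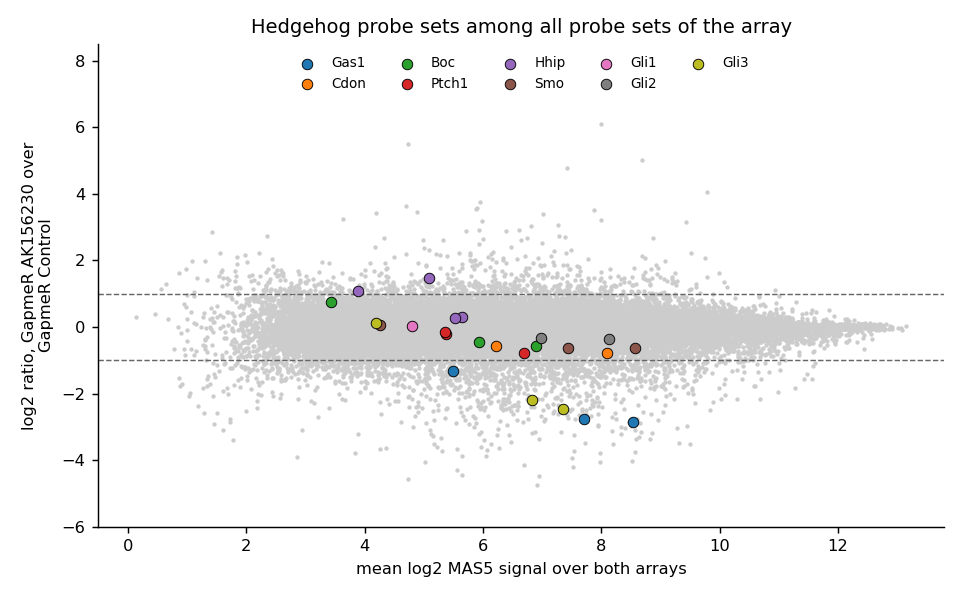
Signal ratio, GapmeR AK156230 over GapmeR Control, on a log2 scale against the mean log2 MAS5 signal over both arrays, with all 45037 probe sets in grey, the 24 of the Hedgehog genes coloured by gene, and dashed lines at 2-fold. The brightest 2 probe sets of Gas1 and of Gli3 lie at the lower edge of the cloud, between -2.86 and -2.19, and most of the others lie inside it.

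Genomic length was measured beside these differences, because long genes were lower more often on these arrays. Among genes at or above the array median, 25.4% of the 779 genes over 160 kb were lower by 2-fold or more, against 2.35% of the 3281 genes under 10 kb. Gli3 (266.3 kb) and Gli2 (220.3 kb) are both in the longest class. Of its 779 genes 36 had a lower log2 ratio than Gli3 and 437 had a lower one than Gli2, so Gli2 was near the middle of genes of its length and Gli3 near the bottom. Gas1, at 3.13 kb, is in the shortest class, where 1 gene of 3281 had a lower log2 ratio. Cdon (86.1 kb) and Hhip (92.2 kb) are in a class with 8.30% lower, Ptch1 (65.1 kb) and Boc (73.8 kb) in one with 5.12% lower, and Smo (25.9 kb) in one with 2.76% lower. The part of length in any of these differences was not tested.

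**Figure D4:**
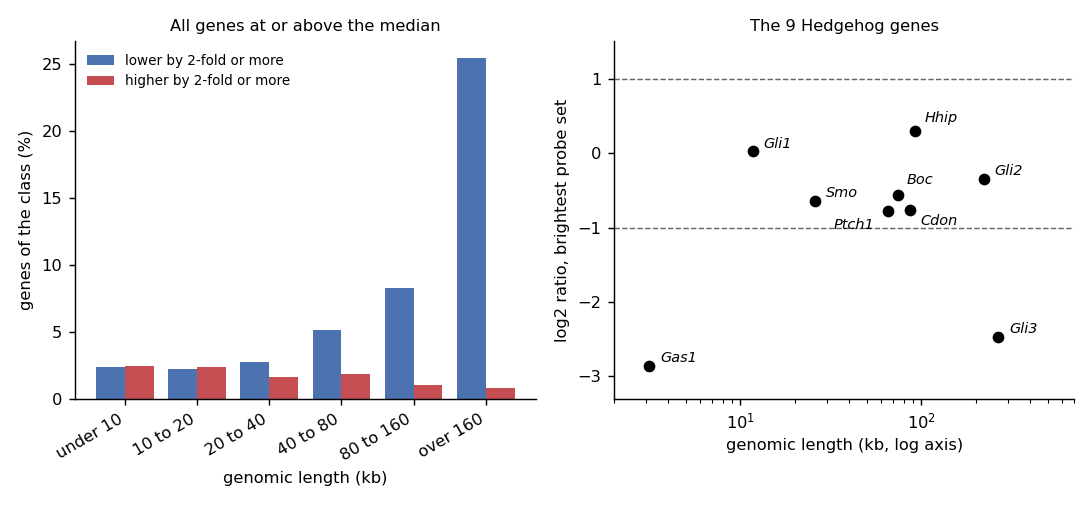
Left, percentage of genes at or above the array median that were lower or higher by 2-fold or more with GapmeR AK156230, by genomic length in kb; right, log2 ratio at the brightest probe set of each of the 9 genes against its length in kb on a log axis, with dashed lines at 2-fold. The share lower is 25.4% over 160 kb and 2.35% under 10 kb, while Gas1 at 3.13 kb and Gli3 at 266.3 kb stand at the ends of the length range, at -2.86 and -2.47.

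The genes of the ligands and of their release differed little. None of 8 was past 2-fold in either direction, while 3.85% of all genes were lower and 1.59% higher by as much. With so few genes this count cannot be told from those shares. Their median log2 ratio was -0.14, beside -0.07 over all genes, and 5 of the 8 were bright. Shh (42.95 under GapmeR Control and 38.98 under GapmeR AK156230) and Ihh (45.44 and 41.23) were below the array median on both arrays. Dhh, which encodes the remaining Hedgehog ligand, gave 153.47 and 118.06, 1.30-fold lower, and 60.52 and 55.83 at its other probe set. Disp1, whose product releases the lipid-modified ligand from the cell, gave 232.19 and 294.01, 1.27-fold higher. Its other probe set went the other way, at a log2 ratio of -0.11. Hhat, which encodes the enzyme that adds palmitate to the ligands, gave 87.92 and 60.5, 1.45-fold lower, and 37.57 and 35.54 at its dim probe set.

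Of 7 other genes whose products act on the signal at the cell surface, Gpc3 alone was past 2-fold. It was lower, as were 3.85% of all genes. Gpc3 encodes a glypican that binds Hedgehog ligands and competes with PTCH1. It gave 342.49 under GapmeR Control and 119.9 under GapmeR AK156230, 2.86-fold lower, at its only probe set, and it spans 341.5 kb. Ext1, which encodes a polymerase of heparan sulfate, was 1.72-fold lower (492.92 and 286.07) and spans 277.9 kb. Mosmo, whose product lowers the amount of SMO at the cell surface, was 1.28-fold higher (336.02 and 430.09).

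Between SMO and the GLI proteins the median log2 ratio was -0.12, beside -0.07 over all genes. Of 35 genes 1 was past 2-fold, a lower one, and 3.85% of all genes were lower by as much. The 1 gene was Sufu, which encodes the protein that holds GLI proteins in the cytoplasm and helps to turn GLI3 into its repressor form. Its brightest probe set gave 208.52 under GapmeR Control and 19.99 under GapmeR AK156230, 10.4-fold lower, and only 34 probe sets on the array had a lower log2 ratio. Its other probe sets were dim on both arrays and did not show this difference, with 50.04 and 49.15 at one and 22.23 and 16.64 at the other. The value for Sufu thus rests on 1 probe set, at a log2 ratio of -3.38 (-2.39 with 24.3 added to every signal), beside -0.03 and -0.42 at the others, and the mean over the 3 was -1.28. Kif7, which encodes the ciliary kinesin that works with SUFU, gave 75.32 and 68.51, 1.10-fold lower. Ift88 and Ift172, whose products carry cargo in the cilium, were 1.26-fold and 1.38-fold lower. Dync2h1, the motor for the return transport, was 1.71-fold lower (72.9 and 42.67) and spans 249.8 kb. Others were higher, with Kif3a 1.19-fold higher (144.39 and 172.03) and Rab23 1.32-fold higher (334.93 and 442.65). Of the 35 genes 20 had log2 ratios below 0 and 15 above 0. Genes of the kinases that mark GLI proteins for processing were mostly close to the control, with Gsk3b at 655.1 and 661.14 and Csnk1a1 at 1729.19 and 1524.25, but Prkacb was 1.66-fold lower (413.2 and 248.97) and Csnk1d 1.73-fold lower (1155.07 and 667.3). The log2 ratios of Prkacb ran from -0.73 to -0.16 over 3 probe sets, and those of Csnk1d from -0.83 to -0.45 over 5.

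Of 22 measured genes known as targets of the pathway, 3 were past 2-fold, all lower, and 16 had log2 ratios below 0, with a median of -0.32. Over all genes 3.85% were lower by 2-fold or more and 58.8% had log2 ratios below 0, with a median of -0.07. Bmp4, which encodes a bone morphogenetic protein, was 2.77-fold lower (916.87 under GapmeR Control and 330.5 under GapmeR AK156230). Foxd1, a forkhead factor gene of stromal cells, was 2.06-fold lower (384.04 and 186.52), and Igfbp6, which encodes a binding protein for insulin-like growth factor 2, was also 2.06-fold lower (821.67 and 399.31). The values of Foxd1 and Igfbp6 were at the threshold and moved to within 2-fold, at -0.94 for both, when the arrays were scaled to the same median, which raises every log2 ratio by 0.105. The G1 cyclin gene Ccnd1, by contrast, gave 2228.67 and 2274.83. The WNT antagonist gene Sfrp1 was 1.85-fold lower (645.77 and 349.36) and the BMP antagonist gene Grem1 1.65-fold lower (1930.17 and 1167). Over the 5 probe sets of Sfrp1 the log2 ratios ran from -1.09 to -0.26. Foxe1, Runx2 and Spp1 among the targets, and Grk2 and Arl13b among the transduction genes, were not analysed here.

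**Figure D5:**
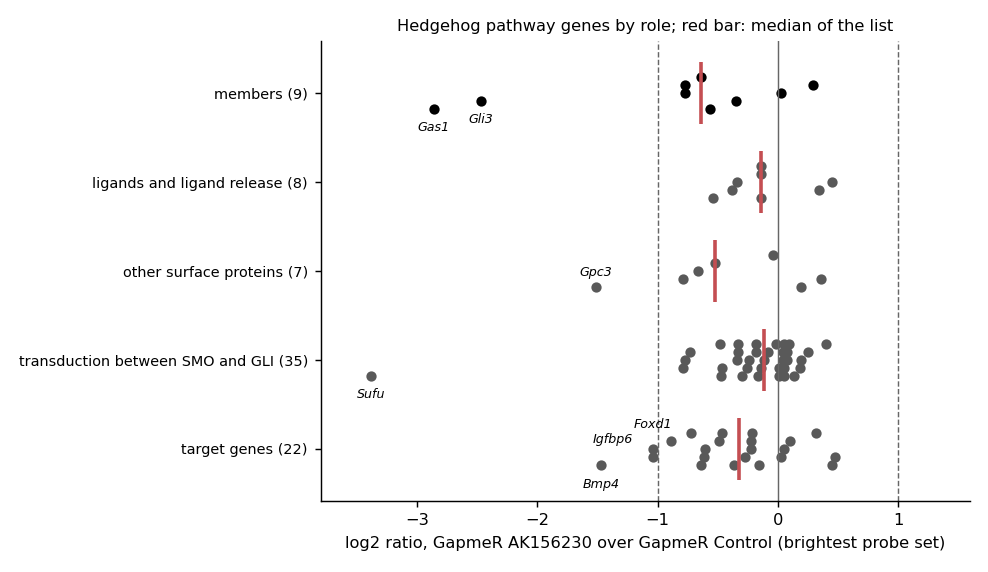
Signal ratio, GapmeR AK156230 over GapmeR Control, on a log2 scale at the brightest probe set of each gene, for the 9 members and for other pathway genes grouped by role (number measured in brackets), with a red bar at each median, dashed lines at 2-fold, and names for genes past it. The medians are -0.64 for the members, -0.14 for ligands and release, -0.52 for other surface proteins, -0.12 for the steps between SMO and GLI and -0.32 for targets.

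Taking the 4 lists as 1, 5 of 72 genes were past 2-fold, all lower, and 47 had log2 ratios below 0. Over all genes 3.85% were lower and 1.59% higher by 2-fold or more, and 58.8% had log2 ratios below 0. These arrays also differed in the genes that mark the cultured cells. All 13 fibroblast markers were bright, led by Col1a2 at 7019.42 under GapmeR Control and 4398.56 under GapmeR AK156230, and 5 of 13 were lower by 2-fold or more with a median log2 ratio of -0.91. These 5 were Fap (5.17-fold), Pdgfra (3.67-fold), Col3a1 (2.95-fold), Pdgfrb (2.76-fold) and Lum (2.24-fold), while Vim gave 6598.43 and 6211.66. The summed signal of the list was 42776 under GapmeR Control and 30341 under GapmeR AK156230. All 6 chondrocyte markers had log2 ratios below 0, with a summed signal of 533.6 and 240.9, of which Col2a1 made up 270.73 and 59.88. Only 3 of the 6 were bright, and Col2a1 alone was past 2-fold. Among the other lists, 2 of 8 epithelium, 1 of 6 endothelium, 1 of 7 leukocyte and 1 of 7 muscle markers were past 2-fold upwards, and 2 of 7 neural markers downwards. The summed signals of these lists were 509.6 and 702.7 for epithelium, 186.1 and 227.1 for endothelium, 1246 and 1122 for leukocytes, 970.2 and 1604 for skeletal muscle, and 500.4 and 486.4 for neural cells. Of these lists 4 of 8 epithelium, 2 of 6 endothelium, 5 of 7 leukocyte, 4 of 7 muscle and 4 of 7 neural markers were bright. Chrna1 (39.66 and 418.27) and Acta1 (416.88 and 770.32) carried the higher muscle sum, with Des at 378.83 and 309.38, and the median signal of that list was 39.66 and 35.33. In the epithelium list Krt18 gave 126.94 and 298.63, Cldn4 32.57 and 94.88, and Epcam 147.65 and 103.1. In the leukocyte list Lyz2 gave 724.68 and 526.64 and Cd68 108.03 and 274.59. Cdh1, Pecam1, Ptprc and Myog were dim on both arrays, at signals that may be background. The part of these shifts in the values of Gas1, Gli3 and the other members was not tested.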

How the data were processed

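RNA of MEFs at passage 2 was measured on 1 Affymetrix array after GapmeR Control and on 1 after GapmeR AK156230. The authors computed the deposited intensity values with MAS5 on a linear scale; the sources used here give neither its version nor a scaling target. The methods name a porcine array, whereas the probe set identifiers match the mouse annotation, which was used. Probe sets annotated to 1 gene (34945) were kept for naming, 34741 of them through the Entrez ID and RefSeq GRCm38.p6. For each gene the brightest probe set, by mean log2 signal, was used. Ratios (GapmeR AK156230 over GapmeR Control) were put on the log2 scale without an offset, and 2-fold was the threshold. SAM, named in the methods, needs groups of arrays and was not run. With 1 array per condition the number of arrays limits the precision. Members and lists were chosen with earlier results of these data known. All 9 members were named with every probe set; of the lists, bright genes past 2-fold and preset genes were named, and further genes were picked once their values were known. The alternatives were scaling to the same median, quantile normalization, loess on mean signal (span 0.3), an offset, minimum signals, thresholds of 1.5-fold and 3-fold, leaving out _x_at and _s_at probe sets, and the mean of all probe sets. Promoter windows are RefSeq's. The counting was tested on simulated data. Python 3.11.15, numpy 2.4.6, pandas 2.3.3, statsmodels 0.14.6 and matplotlib 3.10.9 were used.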

Additional observations from a re-analysis of the deposited data

How the results depend on the processing

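The log2 ratios of the 9 members kept their sign at the brightest probe set under every alternative that gave a value. Gas1 ranged from -2.86 to -2.31 and Gli3 from -2.47 to -1.51, both furthest from the deposited value with the mean of all probe sets, where a dimmer probe set enters, and Gli3 was at -2.12 with the offset. Boc (-0.09), Ptch1 (-0.38) and Hhip (0.78) also moved by more than the spread between probe sets with that mean. Both Gas1 and Gli3 were past 2-fold in all alternatives, and 4 or 5 member probe sets were lower except at 1.5-fold. At 1.5-fold the counts of lower members were 9 probe sets and 5 genes, and the counts of lower list genes were 3 of the other surface proteins, 4 between SMO and GLI, and 8 targets. At 3-fold no probe set of the members was higher, and the counts lower were 0 of the other surface proteins and 0 targets. The higher member probe sets, both of Hhip, numbered 2 as deposited, 0 with the offset, 1 with a minimum signal at the 25th percentile or the median, and 0 with one at the 75th. Lower targets numbered 3 as deposited and 1 with the same median, with quantile normalization or with the offset. Gli1 had no value with a minimum signal at the median or above, nor did Boc, Ptch1 and Hhip with one at the 75th percentile. Over all probe sets past 2-fold the share that was lower was 69.3% as deposited and 57.2% with both arrays at the same median. No paired analysis was possible because each condition had 1 array. Signals under the array median limit what can be read for Gli1 on both arrays and for Hhip with GapmeR Control.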

Other observations

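Genes related to the members by family or by partner were examined after the results above were known. Over all genes 3.85% were lower and 1.59% higher by 2-fold or more, and counts in lists this short say little beside those shares. Of 7 measured zinc finger genes related to the GLI family (Glis1, Glis2, Glis3, Zic1, Zic2, Zic4 and Zic5) none was past 2-fold, with log2 ratios from -0.45 for Zic2 to 0.15 for Zic5. Glis2 gave 405.09 under GapmeR Control and 364.34 under GapmeR AK156230, and Zic1 gave 539.63 and 583.02. Glis3, at 421.4 kb longer than Gli3, gave 148 and 137.11.

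GAS1 resembles the receptors of the GDNF family of growth factors. Of 5 genes of these receptors Gfra1 was 4.13-fold lower (177.84 under GapmeR Control and 43.11 under GapmeR AK156230), with log2 ratios from -2.04 to -0.17 over its 3 probe sets, and the others (Gfra2, Gfra3, Gfra4 and Ret) lay within 2-fold. Gfra1 spans 220.4 kb. Of 6 other growth arrest-specific genes, which share a name with Gas1 and not a family, Gas2 was 2.66-fold lower (203.81 and 76.66), while Gas5 gave 2454.08 and 2714.8 and Gas6 gave 932.24 and 725.66. The 2 probe sets of Gas2 had log2 ratios of -1.41 and -0.49, and the gene spans 133.2 kb. Of 8 genes of proteins that work with CDON or BOC, Neo1, the gene of the netrin receptor neogenin, was 2.37-fold lower (416.6 and 175.61), with log2 ratios from -1.26 to -0.24 over 5 probe sets, and the cadherin gene Cdh2 gave 720.47 and 697.83. Neo1 spans 161.9 kb. No gene of these lists was past 2-fold upwards, and with only 1.59% of all genes higher by as much, that says little about these lists.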
